A study of Homo sapiens with 6 samples.

Results

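The cellular oxygen-sensing machinery was described here through 10 genes, chosen by symbol among the 58735 genes of the deposited tables: the prolyl hydroxylases EGLN1, EGLN2 and EGLN3, the asparaginyl hydroxylase HIF1AN, the transmembrane hydroxylase P4HTM, the ubiquitin ligase subunit VHL, the oxygen-regulated alpha subunits HIF1A and EPAS1, and their partners ARNT and ARNT2. All 10 were found and all 10 had enough counts to be tested, among 15726 tested genes. RNA was sequenced from NCI-N87, an established human gastric cancer cell line. In 3 libraries the cells had received the plasmid PLVX-IRES-Puro-EGLN3, labelled EGLN3 overexpression, and in 3 control libraries they had received the same plasmid without an insert. Puromycin selection followed in both groups and lasted 7 days. It came after 1 day of plasmid in 5 libraries and, by its own label, after 5 days in EGLN3 replicate 3, although the protocol given for every sample, that one included, states the shorter time. The sources used here do not name the promoter that drives the insert. Nor do the labels say whether replicates were separate cultures, so the p-values measure no more than the spread among these libraries, and that spread may be technical.

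When oxygen is present, the EGLN enzymes use it together with 2-oxoglutarate and iron to hydroxylate prolines of the HIF alpha subunits. The VHL complex recognises the hydroxylated subunits and marks them for the proteasome, while HIF1AN hydroxylates an asparagine and so keeps them from their coactivators. Without oxygen the alpha subunits persist, pair with ARNT or ARNT2 and switch on target genes, EGLN1 and EGLN3 among them. This control acts on the alpha subunits as proteins, and the data here are transcript levels only.

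The libraries held between 15157265 and 16767383 counts in genes. The 7 markers of the epithelial line were present, with a summed level of 33265 to 53102 CPM (counts scaled to library size) in EGLN3 libraries and 38316 to 46923 CPM in control libraries. The 5 fibroblast markers summed to 3.69 to 4.45 CPM in EGLN3 libraries and 4.77 to 5.21 CPM in control libraries, nearly all of it COL1A1. The 5 leukocyte markers summed to 1.78 to 3.96 CPM in EGLN3 libraries and 2.36 to 2.97 CPM in control libraries, and the 4 endothelial markers to 0.474 to 0.874 CPM in EGLN3 libraries and 0.816 to 1.22 CPM in control libraries. COL1A2, LUM and MS4A1 had no count in any library. The first principal component, computed without EGLN3, held 70.9% of the variance and did not follow the plasmid: EGLN3 replicates 1, 2 and 3 scored 59.5, -23.1 and -45.7, and control replicates 1, 2 and 3 scored -36.3, 11.4 and 34.3.

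EGLN3 was the member that differed between the groups. It is the hydroxylase also known as PHD3, whose native gene responds strongly to HIF in many cell types. Its gene (ENSG00000129521) is annotated on the minus strand of chromosome 14 at 33924231 to 34462774 in hg38. EGLN3 replicates 1, 2 and 3 held 7298, 27674 and 27494 counts, and control replicates 1, 2 and 3 held 10, 11 and 9. The counting error of the control values is wide, with a 95% Poisson interval of 4.8 to 18.4 for the 10 counts of replicate 1. Per length, on the deposited FPKM scale (counts per kilobase of gene, divided by a factor for each library that is not its plain total), the level was 65.2, 221 and 229 FPKM in EGLN3 replicates 1 to 3, against 0.0777, 0.0946 and 0.0761 FPKM in control replicates 1 to 3. The groups stood far apart, and EGLN3 replicate 1 was below the other EGLN3 libraries. In bulk RNA, more cells that carry the plasmid and more EGLN3 RNA per cell cannot be told apart. The log2 fold change was 11.00 (SE 0.72, 95% interval 9.29 to 12.71; edgeR quasi-likelihood test, adjusted p = 0.031), higher in 3 of 3 libraries. Of all tested genes, 0.00636% passed this test, which is EGLN3 alone. The call was lost without EGLN3 replicate 2 or 3 (edgeR, adjusted p = 0.149 and 0.0651) and without control replicate 1, 2 or 3 (edgeR, adjusted p = 0.403, 0.668 and 0.557), with the log2 fold change between 10.73 and 11.12. Without EGLN3 replicate 1, the lowest EGLN3 library, it was 11.41 (edgeR, adjusted p = 9.8e-07).

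The excess of EGLN3 turned round the make-up of the prolyl hydroxylase transcripts. In counts per kilobase, EGLN3 made up 80.4%, 92.1% and 91.8% of EGLN1, EGLN2 and EGLN3 together in EGLN3 replicates 1 to 3, against 0.414%, 0.523% and 0.477% in control replicates 1 to 3. EGLN1, the enzyme known as PHD2 that does most of the HIF hydroxylation in many cells at normal oxygen, made up 18.5%, 7.16% and 7.66% in the EGLN3 libraries and 90.1%, 91.5% and 91.7% in the control libraries. EGLN3 thus stood 4.35, 12.9 and 11.98 times above EGLN1 on the FPKM scale in EGLN3 replicates 1 to 3, while in control replicates 1 to 3 EGLN1 stood 218, 175 and 192 times above EGLN3. The deposited length of EGLN3 is 7359 bases, the union of all annotated exons, and its coding sequence without the stop codon is 717 bases. If the plasmid carries the coding part alone, dividing by 717 bases raises the share to 98.7% ± 0.851 in EGLN3 libraries (SD, n = 3). The same division gives 4.63% ± 0.515 in control libraries, which hold no insert. Counts per gene do not tell the plasmid's transcripts from native ones. SPTSSA, a gene within the annotated span of EGLN3 that shares no exon base with it, held 423, 394 and 284 counts in EGLN3 replicates 1 to 3 and 350, 402 and 434 in control replicates 1 to 3, with overlapping groups, and EGLN3-AS1 held none.

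**Figure D1:**
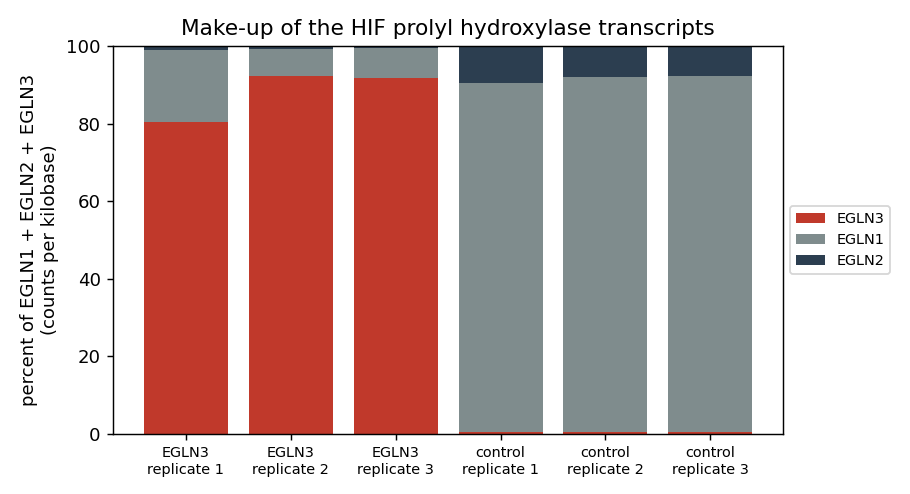
Share of EGLN3, EGLN1 and EGLN2 in the sum of the 3 transcripts, in percent of counts per kilobase of deposited gene length, in each library, with EGLN3 libraries on the left and control libraries on the right. EGLN3 fills 80.4% to 92.1% of the bars of the EGLN3 libraries, and EGLN1 fills 90.1% to 91.7% of the control bars.

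For EGLN1, EGLN2 and EGLN3, the stretch around a RefSeq start on GRCh38.p14 is shown. It runs from 250 bases before to 50 after that start and is read 5′ to 3′ on the strand of the gene. Any link between these sequences and the native levels of the genes was not tested. A RefSeq start need not be the outermost annotated end of the gene. For EGLN3 it lies well inside the annotated span, whose 5′ end is at 34462774, and for EGLN1 inside a span whose 5′ end is at 231425044. Capitals mark ACGTG on either strand, a common form of the core sequence bound by HIF, and 21.4% of the 35116 promoters in the table hold it. The EGLN1 stretch, chr1:231422238-231422537 on the minus strand, held it once, starting at -13, and the EGLN2 stretch, chr19:40798941-40799240 on the plus strand, held it as a palindrome, on one strand from -49 and on the other from -48. The EGLN3 stretch, chr14:33951025-33951324 on the minus strand, did not hold these letters, and a second EGLN2 start in the table did not either.
EGLN1: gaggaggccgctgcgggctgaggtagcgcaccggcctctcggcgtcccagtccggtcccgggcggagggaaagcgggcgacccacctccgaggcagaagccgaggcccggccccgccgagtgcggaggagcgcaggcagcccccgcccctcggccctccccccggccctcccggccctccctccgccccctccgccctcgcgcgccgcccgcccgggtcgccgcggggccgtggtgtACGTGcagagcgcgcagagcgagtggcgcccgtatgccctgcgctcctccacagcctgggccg
EGLN2: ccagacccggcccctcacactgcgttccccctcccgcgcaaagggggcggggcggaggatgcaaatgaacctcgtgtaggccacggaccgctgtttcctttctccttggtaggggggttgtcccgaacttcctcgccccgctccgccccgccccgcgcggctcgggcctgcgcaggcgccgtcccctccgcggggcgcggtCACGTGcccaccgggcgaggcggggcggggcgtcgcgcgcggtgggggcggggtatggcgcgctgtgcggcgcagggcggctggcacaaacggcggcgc
EGLN3: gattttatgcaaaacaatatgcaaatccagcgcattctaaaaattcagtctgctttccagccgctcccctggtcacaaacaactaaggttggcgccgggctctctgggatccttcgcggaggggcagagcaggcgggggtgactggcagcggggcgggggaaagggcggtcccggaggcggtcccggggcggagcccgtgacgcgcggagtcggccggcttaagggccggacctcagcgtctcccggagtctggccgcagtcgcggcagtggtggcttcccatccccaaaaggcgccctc
Of the other members, HIF1AN, P4HTM, HIF1A, EPAS1 and ARNT were in the table and none of their stretches held ACGTG. Other forms of the core sequence were not searched. A match, or its absence in this window, is a description of letters and no measure of binding.

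Apart from EGLN3, the order of levels was led by HIF1A in every library of both groups. On the FPKM scale HIF1A averaged 27.1 ± 6.40 in EGLN3 libraries and 23.8 ± 3.90 in control libraries (SD, n = 3 each). EGLN1 averaged 17.1 ± 2.08 FPKM in EGLN3 libraries and 16.0 ± 1.23 FPKM in control libraries, and VHL 12.3 ± 2.17 FPKM and 13.6 ± 1.78 FPKM. HIF1AN, EPAS1 and ARNT formed a middle group at 6.67 ± 0.946, 6.31 ± 1.32 and 5.27 ± 1.31 FPKM in EGLN3 libraries, and 6.41 ± 0.481, 6.09 ± 0.831 and 5.27 ± 0.947 FPKM in control libraries. P4HTM averaged 2.84 ± 0.703 FPKM in EGLN3 libraries and 3.19 ± 0.413 FPKM in control libraries. ARNT2 and EGLN2 were the lowest of these 9, at 1.52 ± 0.405 and 1.34 ± 0.423 FPKM in EGLN3 libraries and 1.68 ± 0.410 and 1.49 ± 0.266 FPKM in control libraries. In the control libraries, EGLN1 and VHL, HIF1AN and EPAS1, EPAS1 and ARNT, and ARNT2 and EGLN2 were neighbours whose ranges overlapped, while the other neighbours in this order did not overlap.

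**Figure D2:**
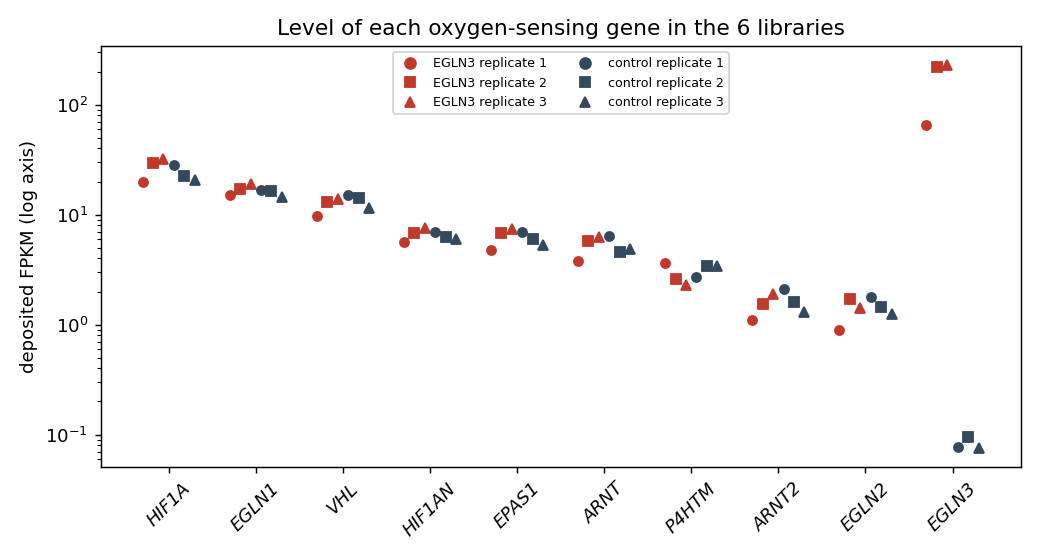
Deposited FPKM of the 10 genes on a log axis, 1 point per library, with EGLN3 libraries to the left of control libraries for each gene and genes ordered by their control mean. The groups overlap for every gene except EGLN3, which runs from 65.2 to 229 FPKM with its plasmid and from 0.0761 to 0.0946 FPKM without.

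The order depends on the length by which counts are divided. With the length of the principal transcript of GENCODE 29 in place of the union of exons, an alternative chosen after seeing the data, P4HTM moved to position 4 of 10 in the control libraries and HIF1AN to position 7. P4HTM has a deposited length of 7641 bases and a principal transcript of 2127. HIF1A, EGLN1 and VHL kept the positions 1, 2 and 3 under both lengths, and EGLN3 stayed at position 10.

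The level of EGLN2, the hydroxylase known as PHD1, depends on how its exons are counted. Its gene lies on the plus strand of chromosome 19 at 40798996 to 40808433, and 2012 of its 6577 exon bases, or 30.6%, are also exons of the annotated readthrough gene RAB4B-EGLN2. RAB4B-EGLN2 was listed with 0 counts in all 6 libraries. The sources used here do not say how reads in exons of both genes were counted. Divided by the 4565 exon bases that no other annotated gene shares, EGLN2 in control libraries stood at 2.16 CPM per kilobase, against 1.499 CPM per kilobase with the deposited length, and P4HTM at 3.19 CPM per kilobase stood above both. These CPM per kilobase used library totals without TMM scaling.

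The native hydroxylases did not pass the test between the plasmids. EGLN1 measured 14.99, 17.2 and 19.2 FPKM in EGLN3 replicates 1 to 3, against 16.9, 16.5 and 14.6 FPKM in control replicates 1 to 3. The groups overlapped, and EGLN3 replicate 3 was the highest of the 6 and control replicate 3 the lowest. The log2 fold change of EGLN1 was 0.09 (SE 0.15; edgeR, adjusted p = 1), and its 95% interval of -0.26 to 0.44 spans 0.837-fold to 1.36-fold. EGLN2 measured 0.889, 1.73 and 1.42 FPKM in EGLN3 replicates 1 to 3, against 1.77, 1.44 and 1.25 FPKM in control replicates 1 to 3. It rests on 89 to 204 counts per library, and EGLN3 replicate 1 was the lowest. The log2 fold change of EGLN2 was -0.15 (SE 0.28, 95% interval -0.81 to 0.51; edgeR, adjusted p = 1). HIF1AN, the asparaginyl hydroxylase also called FIH, ran from 5.65 to 7.52 FPKM in EGLN3 libraries and from 6.01 to 6.94 FPKM in control libraries, so the EGLN3 range enclosed the other. Its log2 fold change was 0.05 (SE 0.15, 95% interval -0.32 to 0.42; edgeR, adjusted p = 1). HIF1AN shares 325 exon bases, 2.33% of its exons, with NDUFB8 on the opposite strand, which had a log2 fold change of 0.12 (SE 0.64; edgeR, adjusted p = 1).

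P4HTM, an enzyme of the endoplasmic reticulum membrane that can also hydroxylate HIF alpha, ran against the other members across libraries. It measured 3.63, 2.62 and 2.28 FPKM in EGLN3 replicates 1 to 3, against 2.72, 3.44 and 3.42 FPKM in control replicates 1 to 3. EGLN3 replicate 1 was the highest of the 6 libraries and EGLN3 replicate 3 the lowest. The log2 fold change was -0.17 (SE 0.21, 95% interval -0.67 to 0.32; edgeR, adjusted p = 1). P4HTM shares 93 exon bases, 1.22% of its exons, with WDR6 on the same strand, and WDR6 had a log2 fold change of -0.27 (SE 0.19; edgeR, adjusted p = 1).

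VHL, the subunit that binds hydroxylated HIF alpha, measured 9.82, 13.2 and 13.9 FPKM in EGLN3 replicates 1 to 3, against 14.97, 14.2 and 11.6 FPKM in control replicates 1 to 3. EGLN3 replicate 1 was the lowest and control replicate 1 the highest, and the groups overlapped. The log2 fold change was -0.15 (SE 0.19, 95% interval -0.59 to 0.30; edgeR, adjusted p = 1).

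The alpha subunits and their partners also stayed short of the threshold. HIF1A, the alpha subunit found in nearly all cell types, measured 19.9, 29.6 and 31.9 FPKM in EGLN3 replicates 1 to 3, against 28.2, 22.4 and 20.7 FPKM in control replicates 1 to 3. Its lowest and its highest library were both EGLN3 libraries, replicates 1 and 3. The log2 fold change was 0.19 (SE 0.22; edgeR, adjusted p = 1), with a 95% interval of -0.35 to 0.72 that spans 0.787-fold to 1.65-fold. EPAS1, which encodes HIF-2 alpha, measured 4.81, 6.77 and 7.34 FPKM in EGLN3 replicates 1 to 3, against 6.98, 5.95 and 5.33 FPKM in control replicates 1 to 3. Its order of libraries was nearly that of HIF1A, and its log2 fold change was 0.05 (SE 0.20, 95% interval -0.44 to 0.54; edgeR, adjusted p = 1). ARNT, the common dimer partner, had values of 3.79, 5.75 and 6.28 FPKM in EGLN3 replicates 1 to 3, against 6.35, 4.56 and 4.90 FPKM in control replicates 1 to 3. Its mean hardly differed between the groups, with a log2 fold change of -0.0018 and a 95% interval of -0.57 to 0.56. ARNT2, a related partner best known from neurons, ran from 1.10 to 1.91 FPKM in EGLN3 libraries and from 1.31 to 2.12 FPKM in control libraries, with a log2 fold change of -0.15 (SE 0.27, 95% interval -0.79 to 0.50; edgeR, adjusted p = 1). HIF1A-AS2, an antisense transcript within the HIF1A locus, held 4, 4 and 11 counts in EGLN3 replicates 1 to 3 and 13, 6 and 5 in control replicates 1 to 3, too few to be tested.

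**Figure D3:**
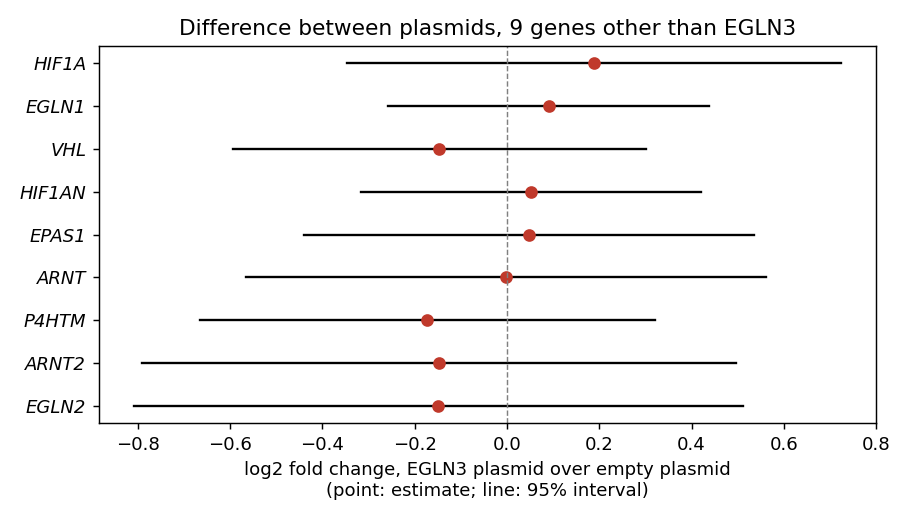
Log2 fold change of the 9 genes other than EGLN3, EGLN3 plasmid over empty plasmid, with points for the estimate and lines for its 95% interval. Every interval includes 0, and the estimates lie between -0.17 for P4HTM and 0.19 for HIF1A.

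Over these 9 genes, 4 had a positive and 5 a negative log2 fold change, with a median of -0.0018 beside a median of 0.01 over all tested genes. Their groups overlapped in 9 of 9, and of all tested genes 6.26% had groups that did not overlap, 2.64% with EGLN3 libraries higher and 3.62% with them lower. At an unadjusted p under 0.05, edgeR counted 0 of these 9 and 1.11% of all tested genes. DESeq2 and limma on log2(FPKM + 1) and log2(FPKM + 0.1) also called 0 of them. With 1 surrogate variable as a term in the model, an estimate from the same libraries that may make p-values too small, 4.71% of tested genes passed and 0 of the 9 did. In that fit VHL had a log2 fold change of -0.18 (SE 0.065; edgeR, adjusted p = 0.112) and HIF1A one of 0.14 (SE 0.051; edgeR, adjusted p = 0.126).

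Ratios between members within a library do not depend on library scaling. In 2 of the 3 ratios compared, both with HIF1A in them, the groups did not overlap. The exact permutation test cannot give p under 0.1 with these libraries, so no ratio could pass a threshold of 0.05. EPAS1 stood at 0.242, 0.229 and 0.230 of the HIF1A level per length in EGLN3 replicates 1 to 3, against 0.248, 0.266 and 0.257 in control replicates 1 to 3. All 3 EGLN3 libraries were below all 3 control libraries. The difference of mean log2 ratios was -0.14, from -2.10 ± 0.047 in EGLN3 libraries and -1.96 ± 0.051 in control libraries (SD, n = 3 each; exact permutation test, two-sided, p = 0.1, the smallest this design allows, and 0.15 adjusted over 3 ratios). Of all other tested genes, 5.86% likewise had a ratio to HIF1A that was lower in all EGLN3 libraries, and 0.432% had one that was higher. The ratio of HIF1A to ARNT was 5.24, 5.16 and 5.09 in EGLN3 replicates 1 to 3, against 4.44, 4.91 and 4.23 in control replicates 1 to 3. These groups did not overlap either, with a difference of 0.19 in log2 (exact permutation test, two-sided, p = 0.1, and 0.15 adjusted over 3 ratios), and 3.48% of all other tested genes had a ratio to ARNT that was higher in all EGLN3 libraries and 0.846% one that was lower. The ratio of EGLN1 to EGLN2 was 16.9, 9.95 and 13.5 in EGLN3 replicates 1 to 3, against 9.54, 11.5 and 11.7 in control replicates 1 to 3. These values overlapped, with a difference of 0.27 in log2 (exact permutation test, two-sided, p = 0.4, and 0.4 adjusted over 3 ratios). Of all other tested genes, 3.9% had a ratio to EGLN2 that was higher in all EGLN3 libraries and 0.235% one that was lower.

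**Figure D4:**
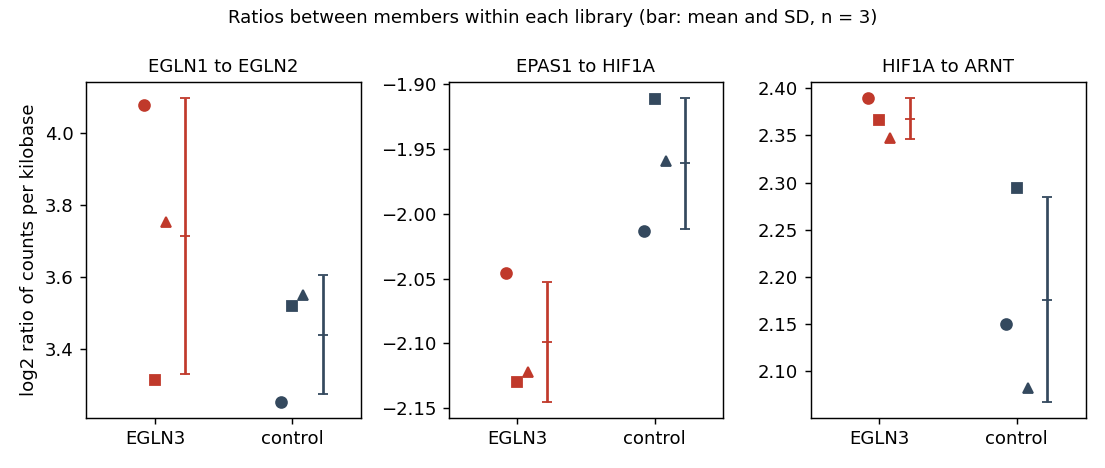
Log2 ratio of counts per kilobase of EGLN1 to EGLN2, EPAS1 to HIF1A and HIF1A to ARNT, 1 point per library, with the mean and SD of each group beside the points (n = 3), EGLN3 libraries left and control libraries right, on axes that do not start at 0. The EPAS1 to HIF1A points lie lower and the HIF1A to ARNT points higher in the EGLN3 libraries, without overlap, while those of EGLN1 to EGLN2 overlap.

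As shares, HIF1A made up 80.5%, 81.4% and 81.3% of HIF1A and EPAS1 together in EGLN3 replicates 1 to 3, against 80.1%, 79.0% and 79.5% in control replicates 1 to 3. The split was close in all 6 libraries, although the level of each subunit varied by about 1.5 to 1.6 times across them. ARNT made up 77.7% ± 1.11 of ARNT and ARNT2 together in EGLN3 libraries and 75.9% ± 2.63 in control libraries (SD, n = 3 each), and these values overlapped.

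The EGLN3 libraries offered a limited view of dose, since replicates 2 and 3 carried 3.41 and 3.57 times the EGLN3 level of replicate 1 in CPM. As a share of all counts, without TMM scaling, EGLN3 took 0.0441%, 0.172% and 0.181% in replicates 1 to 3. None of the 9 other members was ordered with this dose, that is, with replicate 1 between the control mean and both other EGLN3 libraries. Of all tested genes, 4.37% were ordered upward and 4.18% downward. Relative to the control mean in log2 CPM, HIF1A stood at -0.26 in replicate 1, 0.33 in replicate 2 and 0.45 in replicate 3, with a range of 0.45 within the control libraries. EPAS1 stood at -0.34, 0.16 and 0.28, and ARNT at -0.47, 0.13 and 0.27, in the same order of replicates. EGLN1, at -0.10, 0.10 and 0.27, and HIF1AN, at -0.19, 0.09 and 0.24, followed the same pattern, and P4HTM, at 0.18, -0.28 and -0.47, the opposite one. In these 6 of 9 members, replicate 1 lay on the other side of the control mean from replicates 2 and 3, as did 59.9% of all tested genes. The EGLN3 libraries had the same order by dose and along the first principal component, so among these 3 the dose and the position on that component cannot be told apart. The control libraries, with no insert, also spread along it, from -36.3 to 34.3. Time with the plasmid, as labelled, was 1 day in both EGLN3 replicates 1 and 2 and 5 days in EGLN3 replicate 3. That replicate had the highest dose and the lowest score on the component. Its labelled time cannot be told apart from its dose or its position.

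The members moved together along the first principal component. Lowest of the 6 libraries in EGLN3 replicate 1 were 7 of the 9 members, against 31.2% of all tested genes. EGLN2, HIF1A, EPAS1, ARNT, ARNT2, VHL and HIF1AN were those 7. EGLN1 was lowest in control replicate 3, and P4HTM alone was highest in EGLN3 replicate 1, as were 31.6% of all tested genes. Highest in EGLN3 replicate 3 or control replicate 1, the libraries at the other end, were 8 of 9, against 42.2% of all tested genes. The loading was negative for 8 of 9 members and for 50.01% of tested genes. No cause of this shared movement was tested.

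**Figure D5:**
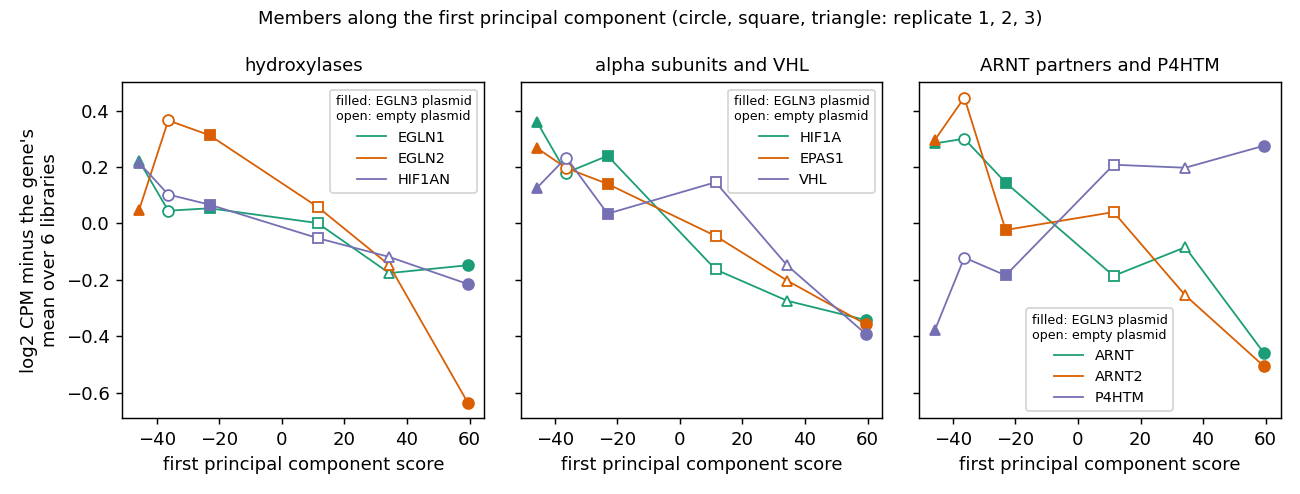
Log2 CPM of each of the 9 genes minus its own mean over the 6 libraries, against the score of the library on the first principal component, with filled points for EGLN3 libraries and open points for control libraries. HIF1A, EPAS1, ARNT, ARNT2, VHL, EGLN1, EGLN2 and HIF1AN slope down toward EGLN3 replicate 1 at a score of 59.5, and P4HTM slopes up.

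Genes that followed a member most closely were sought over the 6 libraries among 12266 protein-coding genes, by the root mean square difference of their deviations from their own mean in log2 CPM. For HIF1A these were MTMR6, YAP1 and XPO1, at 0.019, 0.021 and 0.023, where the median gene was at 0.323 and EPAS1 at 0.0797. For EPAS1 they were AZIN1, PPM1H and MCM10, at 0.013, 0.017 and 0.017, with the median gene at 0.290. For EGLN3 the plasmid's excess itself set the distance of every gene, so these values show no likeness. The smallest were NPIPA7, U2AF1 and HIST1H4E at 4.77, 4.89 and 4.90, with the median gene at 5.32. All were low, averaging 3.18, 4.62 and 1.73 CPM in EGLN3 libraries and 1.47, 1.72 and 0.901 CPM in control libraries. HIST1H4E was below the required mean of 1 CPM in the control libraries and reached it only through the EGLN3 libraries. The libraries share the first principal component, so closeness here is a description.

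Partners of VHL and other regulators of HIF protein were not called. Of a list of 16 such genes, 15 were tested, 0 were called in either direction, and 8 had a positive log2 fold change (median 0.0065). Over all tested genes 0.00636% were called, which is EGLN3 alone, so 0 calls is near the overall share. The smallest unadjusted p-values belonged to OS9, an endoplasmic reticulum lectin reported to bind HIF1A, at a log2 fold change of -0.16 (SE 0.13), RUVBL2, an ATPase of chromatin remodelling complexes, at -0.25 (SE 0.26), and the chaperone HSP90AA1 at 0.08 (SE 0.14; edgeR, adjusted p = 1 for all 3). With the surrogate variable RUVBL2 alone of this list passed, at -0.24 (SE 0.054; edgeR, adjusted p = 0.0115), in a fit where 3.6% of all tested genes were called lower and 1.11% higher. HIF3A, the remaining alpha subunit, was too low to be tested, at 0.106 CPM in EGLN3 libraries and 0.122 CPM in control libraries on average.

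Transcripts widely used as readouts of HIF activity did not pass either. Of 16 such genes 15 were tested, 0 were called in either direction by edgeR, and 8 had a positive log2 fold change (median 0.02). The share called over all tested genes was 0.00636%, so 0 calls is near it. ANKRD37, which encodes an ankyrin repeat protein, was the 1 of them at an unadjusted p under 0.05, with 1.19 ± 0.171 CPM in EGLN3 libraries and 1.85 ± 0.149 CPM in control libraries (SD, n = 3 each). It had a log2 fold change of -0.63 (SE 0.25; edgeR, adjusted p = 1), and its groups did not overlap. Over all tested genes, 1.11% had an unadjusted p under 0.05 and 6.26% had groups that did not overlap, so 1 of 15 without overlap is near the overall share. BNIP3, a mitochondrial protein of mitophagy and cell death, was at 0.35 (SE 0.22), and PFKFB4, a regulator of glycolysis, at -0.21 (SE 0.16). CA9, a carbonic anhydrase whose transcript is among the most dependent on HIF, averaged 0 CPM in EGLN3 libraries and 0.0209 CPM in control libraries, both below the 0.179 to 0.198 CPM that 3 counts amount to in one library by its total without TMM scaling.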

How the data were processed

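Gene expression was measured by RNA sequencing in 6 NCI-N87 libraries, grouped by their titles into 3 EGLN3 and 3 control libraries. The authors deposited whole-number counts per gene without scaling, and hg38, DESeq2 1.20.0, featureCounts 1.5.0-p3 and HISAT2 2.0.5 stand in the submitters' processing notes with no role for each. In the deposited FPKM, each count is scaled by the gene's length and by a factor that is 1 number for each library. The sources used here name neither the annotation nor the use of strand. All 58735 gene identifiers were found in GENCODE 29, and the coordinates and union exon lengths of the 10 members matched it.

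Counts were filtered with filterByExpr, scaled by TMM (factors 0.919 to 1.06) and tested with edgeR 4.0.16 (R 4.3.3; quasi-likelihood, robust, no covariate), with Benjamini-Hochberg adjustment over 15726 genes and a threshold of 0.05. The SE is the log2 fold change divided by the square root of F. Log2 CPM used a prior count of 2. The code was tested on simulated counts with a smaller dispersion than these data (common dispersion 0.0589) and no component shared among libraries. That test therefore does not measure error rates in these data. Alternatives were DESeq2 1.42.0, RLE scaling, a filter of 1 CPM in 3 libraries, no filter, limma 3.58.1 on log2(FPKM + 1) and log2(FPKM + 0.1), the replicate number as a block, 1 surrogate variable (sva 3.50.0) and leaving out each library. Intervals on counts cover counting error only. No pair of libraries of the same group agreed within sampling noise (chi-square per degree of freedom 8.07 to 104). Pairs across groups were not compared.

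Members and lists were chosen with earlier results of these data known. Named genes were the 10 members, called list members or else the 3 of each list with the smallest p, genes overlapping a member, and the 3 genes most like EGLN3, HIF1A and EPAS1. CA9 and HIF3A were named after their values were seen.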

Additional observations from a re-analysis of the deposited data

How the results depend on the processing

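Direction and side of the threshold held for most values, but the only call, that of EGLN3, was lost in several settings. EGLN3 kept its direction throughout but lost the call with limma on log2(FPKM + 1), at a log2 fold change of 7.12 (adjusted p = 0.0677), and with the replicate block, at 10.83 (adjusted p = 0.255), so the number of called genes was 0 in both, while limma on log2(FPKM + 0.1) kept it (adjusted p = 0.0106). Leaving out 1 library gave EGLN3 a log2 fold change between 10.73 and 11.41. It left 1 called gene without EGLN3 replicate 1 and 0 without any other library. The surrogate variable gave 741 called genes and 1 call among the partners and regulators of HIF protein. Libraries with the same replicate number did not move together. Their deviations from the group mean correlated at -0.793, -0.176 and -0.674 over genes, which are not independent replicates. With few libraries and a dominant first principal component, these values cannot tell whether libraries with the same number were prepared together. The block took the genes at an unadjusted p under 0.05 to 23, against 174 without it. The cause of these changes was not tested.

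Small log2 fold changes of uncalled members changed sign. ARNT was at 0.0059 with DESeq2 and with RLE scaling and at 0.00093 with the stricter filter. Leaving out 1 library moved EGLN1 between -0.0049 and 0.19, EGLN2 between -0.37 and 0.093, HIF1AN between -0.049 and 0.18, VHL between -0.25 and 0.0084, EPAS1 between -0.081 and 0.23, ARNT between -0.15 and 0.20, and ARNT2 between -0.35 and 0.059. HIF1A stayed between 0.049 and 0.39 and P4HTM between -0.37 and -0.040. The difference in log2 ratio ran from -0.16 to -0.11 for EPAS1 to HIF1A, from 0.15 to 0.25 for HIF1A to ARNT and from 0.093 to 0.47 for EGLN1 to EGLN2. The EGLN3 share of prolyl hydroxylase transcripts moved to 98.7% in EGLN3 libraries and 4.63% in control libraries with the coding length, and to 1.12% in control libraries with the principal transcript length, by construction of the divisor. With 3 libraries a group, the 95% intervals allow 0.837-fold to 1.36-fold for EGLN1 and 0.787-fold to 1.65-fold for HIF1A. They reach lower for EGLN2, at 0.571-fold to 1.42-fold, and for ARNT2, at 0.578-fold to 1.41-fold.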
